A study of Arabidopsis thaliana with 20 samples.

Results

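Ribosomal protein genes were taken as the protein-coding genes of the 5 nuclear chromosomes whose product text in the TAIR10.1 annotation (RefSeq) starts with ribosomal protein, 60S or 40S. They numbered 304 of 27444 protein-coding nuclear genes of Arabidopsis thaliana. Chromatin of 10-day-old seedlings was immunoprecipitated and sequenced (ChIP-seq) with antibodies to the linker histone H1, to the variant H2A.Z, to H3 and to H3 methylated as H3K4me3 or H3K36me3. The h3.3kd plants carried T-DNA insertions in HTR4 (htr4-2) and HTR8 (htr8-2) together with an artificial microRNA against HTR5, and were compared with WT plants of the same accession, Col-0. HTR4, HTR5 and HTR8 are the genes that encode H3.3, the H3 variant laid down outside DNA replication. Each antibody was used on 2 h3.3kd and 2 WT samples, which gave 20 libraries. The sources do not name which of the h3.3kd lines was used for ChIP-seq, and nothing in them says that the replicates were grown apart, so p-values measure the spread between these samples, which may be technical.

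A eukaryotic ribosome joins a small 40S and a large 60S subunit, and each subunit is built on ribosomal RNA from many proteins that must be made in matched amounts. In plants nearly every one of these proteins is encoded by several nuclear paralogs, and further nuclear genes encode proteins of the ribosomes in plastids and mitochondria. Ribosomal protein genes are short, strongly and steadily transcribed in growing tissue, and their promoters are known for a telo box and for site II elements, which TCP transcription factors bind. H3K4me3 marks the start of transcribed genes and H3K36me3 their transcribed part, whereas H2A.Z spreads over the body of many weakly or variably transcribed genes.

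By the family name in the product text, 175 of the genes were counted with large subunits and 108 with small subunits. Another 12 encoded acidic proteins of the stalk, the flexible arm of the large subunit that recruits translation factors. A further 8 had a product text that fits neither subunit, and 1 encoded a methyltransferase of a ribosomal protein. The annotation placed 144 of the products in cytosolic ribosomes and 40 in plastids or mitochondria, and did not place the other 120. The rule also takes in genes related to elongation factors, because their product text starts with ribosomal protein S5, and these are counted among the 108. Family names that join proteins of both subunits, such as L7Ae/L30e/S12e/Gadd45, are counted with large subunits.

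The genes were shorter than others, with a median length of 1566.5 bp against 2078 bp over all genes, but had the same median of 4 exons. They also sat closer to their neighbours. The stretch between a ribosomal protein gene and the gene upstream had a median of 352 bp, against 943 bp over all genes, and 171 of 304 promoters (56.2%) overlapped another gene, against 35.5% of all promoters. A promoter here is the 500 bp before the annotated start. Divergent neighbours were about as frequent at ribosomal protein genes (50.7%) as at all genes (48.0%).

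Both strands of each promoter were searched for the telo box (AAACCCTA), for site II elements (TGGGCC or TGGGCT) and for TATA boxes (TATAAA or TATATA). Overlapping matches were counted separately, so that a palindromic site II element counts as 2. A telo box was found at 58 of 304 ribosomal protein genes (19.1%) and at 7.51% of 27443 promoters, and a site II element at 182 (59.9%) and at 26.6%. Both motifs were present at 46 genes (15.1%, against 2.75% of all promoters) and neither at 110 (36.2%, against 68.7%). The TATA box was no more frequent at ribosomal protein genes (74.0%) than at all genes (78.3%). Telo boxes lay at a median of 49 bp and site II elements at a median of 62 bp before the start, whereas TATA matches lay at a median of 220.5 bp. These matches describe letters only, and no factor was measured at them.

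**Figure D1:**
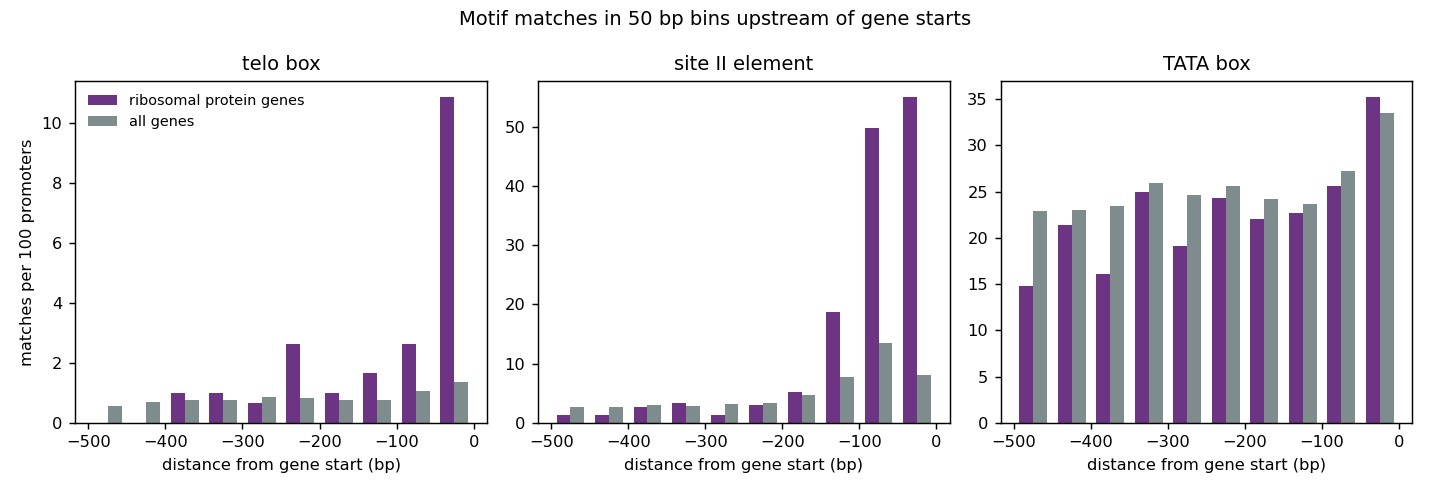
Matches of the telo box, the site II element and the TATA box per 100 promoters (y axis) in 50 bp bins of distance from the gene start (x axis, 0 is the start), for 304 ribosomal protein genes (purple) and all genes (grey). In the 50 bp next to the start, telo boxes reached 10.9 matches per 100 ribosomal protein genes, against 1.37 per 100 genes over all.

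The following stretches show how different the promoters of paralogs are, and which letters stand before genes that the results below turn on. Each is the 200 bp before the annotated start in TAIR10.1, written 5′ to 3′ on the strand of the gene, with telo boxes and site II elements in capitals, and none of them overlaps another gene. RPS5A (AML1) and RPS5B encode the same 40S protein, and RPS5A is the paralog known for dividing cells. RPS6A and RPS6B encode the 40S protein that S6 kinase phosphorylates when growth is signalled through TOR. AT2G47570 (60S L18), AT5G43640 (S19 family) and AT1G36240 (L7Ae/L30e/S12e/Gadd45 family) belong to a small set low in H3K4me3 and H3K36me3 that is described below.
RPS5A, chr3:3779546-3779745, minus strand: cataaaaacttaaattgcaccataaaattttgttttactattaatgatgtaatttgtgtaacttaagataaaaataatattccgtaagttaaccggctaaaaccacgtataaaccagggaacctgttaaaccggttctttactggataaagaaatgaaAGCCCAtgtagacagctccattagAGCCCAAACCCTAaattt
RPS5B, chr2:15649472-15649671, minus strand: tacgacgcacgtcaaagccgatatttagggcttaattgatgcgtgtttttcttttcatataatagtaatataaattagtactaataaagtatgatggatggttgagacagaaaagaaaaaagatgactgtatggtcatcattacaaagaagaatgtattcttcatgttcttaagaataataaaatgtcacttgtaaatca
RPS6A, chr4:15347805-15348004, minus strand: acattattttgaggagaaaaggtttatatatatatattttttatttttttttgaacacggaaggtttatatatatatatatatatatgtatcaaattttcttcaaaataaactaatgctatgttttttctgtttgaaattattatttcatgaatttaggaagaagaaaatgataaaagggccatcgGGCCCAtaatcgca
RPS6B, chr5:3260255-3260454, minus strand: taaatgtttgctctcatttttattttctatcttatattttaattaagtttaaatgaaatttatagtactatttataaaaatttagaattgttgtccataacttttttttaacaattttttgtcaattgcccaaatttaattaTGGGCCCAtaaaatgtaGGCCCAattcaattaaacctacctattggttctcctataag
AT2G47570, chr2:19516923-19517122, minus strand: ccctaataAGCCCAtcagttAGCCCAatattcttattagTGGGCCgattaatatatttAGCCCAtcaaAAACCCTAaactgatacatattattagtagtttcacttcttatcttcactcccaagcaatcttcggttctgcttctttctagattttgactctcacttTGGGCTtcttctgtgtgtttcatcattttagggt
AT5G43640, chr5:17531102-17531301, plus strand: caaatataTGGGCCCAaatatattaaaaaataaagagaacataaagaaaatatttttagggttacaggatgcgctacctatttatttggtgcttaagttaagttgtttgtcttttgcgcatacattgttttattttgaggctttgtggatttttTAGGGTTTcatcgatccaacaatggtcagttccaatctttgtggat
AT1G36240, chr1:13614690-13614889, plus strand: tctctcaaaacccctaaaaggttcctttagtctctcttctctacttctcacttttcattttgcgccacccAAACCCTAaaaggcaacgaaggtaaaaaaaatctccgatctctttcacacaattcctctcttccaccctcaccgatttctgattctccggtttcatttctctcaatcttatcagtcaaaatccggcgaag
RPS5A held a telo box 13 bp before its start that shares a base with a site II element, while its paralog RPS5B held neither motif. RPS6A held 1 site II element and RPS6B 3 of them. AT2G47570 held a telo box and 5 site II elements, AT5G43640 a telo box and 2 site II elements, and AT1G36240 a telo box, so these motifs were also present at genes low in the active marks.

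Depth was uneven, with 10829576 to 68090065 listed reads in h3.3kd libraries (median 18815600) and 8688846 to 53927583 in WT libraries (median 22648700). The smallest was the library of WT H3 replicate 2, and it stood apart: its median H3 level over promoters of ribosomal protein genes was 3.34 (log2 of reads per 1000000 listed, RPM, per kb), against 2.81 and 2.60 in the h3.3kd libraries and 2.69 in WT replicate 1. It is the denominator of every WT replicate 2 ratio below. As a check of the labels, each disrupted gene was searched for the stretch without reads in h3.3kd that held most WT reads, so the 0 in h3.3kd is by choice of the stretch: 46 positions of HTR4 had 0 reads in 10 h3.3kd libraries and 4 to 80 in each of 10 WT libraries, and 95 positions of HTR8 had 0 reads and 12 to 171. The lists of H3K4me3 and H2A.Z replicate 2 of both genotypes carry no strand, unlike the other 16.

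Levels were read in 3 windows: the promoter, the first 25% of the gene (5′ window) and its last 50% (3′ window). They are log2 of the antibody over H3, both in RPM, and for H3 itself log2 of RPM per kb. A window was tested at genes of at least 500 bp with a mean of at least 10 reads. Of 304 ribosomal protein genes, 288 were tested in every window with every antibody, and 13 in none. Of these 13, 9 were shorter than 500 bp and 5 had no position at which a read maps uniquely, with 1 gene in both counts. Of the 5, 3 are near-identical copies on chromosome 1. Levels and counts below are over the genes that passed these filters. The same filters applied to all genes, and since the lists hold uniquely mapping reads only, stretches shared by paralogs give none.

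H3K4me3 and H3K36me3 were high at ribosomal protein genes in both genotypes. In the 5′ window, H3K4me3 over H3 had a median of 1.24 ± 0.01 in h3.3kd and 1.14 ± 0.12 in WT (SD, n = 2 libraries each), against 0.81 in h3.3kd and 0.72 in WT over all genes. H3K36me3 in the same window was 1.19 ± 0.23 in h3.3kd and 1.06 ± 0.07 in WT (SD, n = 2), against 0.45 in h3.3kd and 0.39 in WT over all genes. Between 84.7% and 88.2% of ribosomal protein genes lay above the median of all genes for H3K36me3 in each of the 4 libraries, and between 80.2% and 87.2% for H3K4me3. The difference held over the 3′ window, where H3K36me3 exceeded the median of all genes by 0.38 to 1.03 in the 4 libraries. With 2 libraries a genotype these levels are given without a test.

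H2A.Z and H1 were lower over the body of ribosomal protein genes than over all genes. H2A.Z over the 3′ window was -0.17 ± 0.01 in h3.3kd and -0.39 ± 0.03 in WT (SD, n = 2), against 0.12 in h3.3kd and 0.07 in WT over all genes. Between 20.6% and 28.9% of ribosomal protein genes lay above the median of all genes. H1 in the 5′ window was -0.53 ± 0.06 in h3.3kd and -0.44 ± 0.16 in WT (SD, n = 2), against -0.22 in h3.3kd and -0.18 in WT over all genes. At promoters the difference from all genes was small, between 0.04 and 0.16 for H2A.Z and between -0.15 and 0.04 for H1. H3 itself showed no one-sided difference within genes: in the 3′ window its median was lower than that of all genes in 3 libraries and higher, by 0.19, in WT replicate 2.

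**Figure D2:**
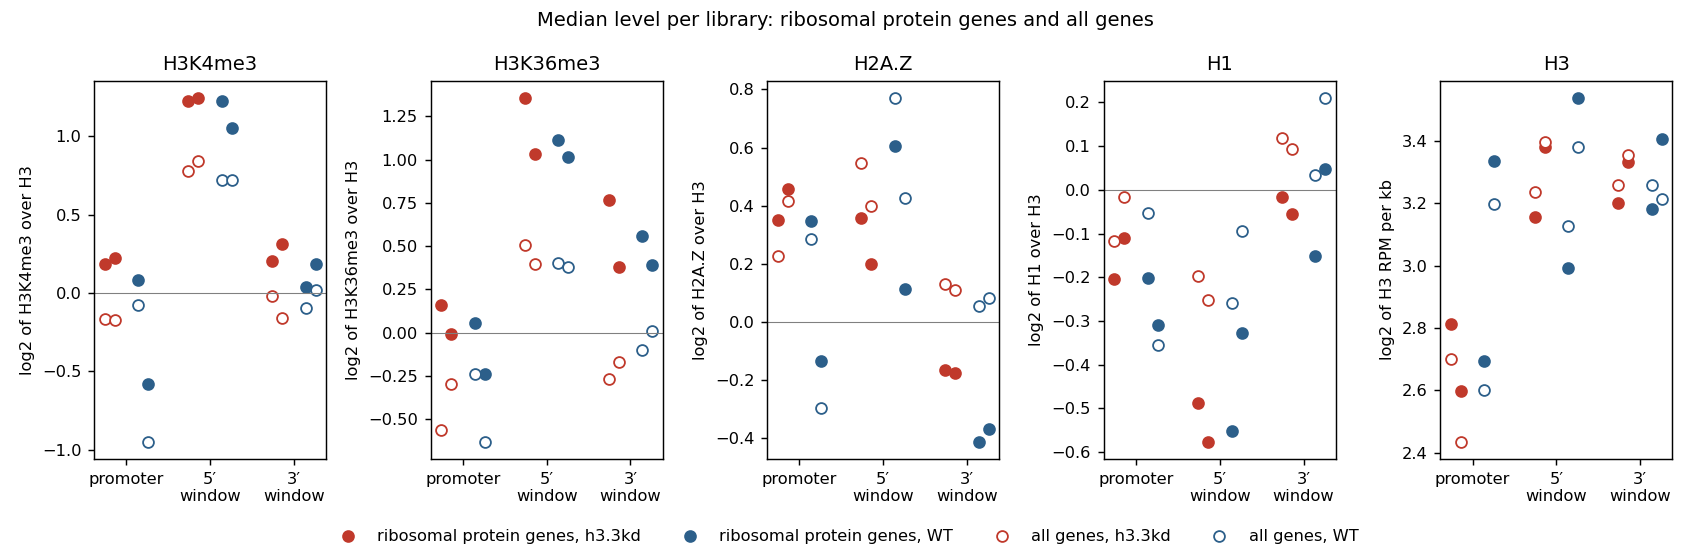
Median level per library (y axis, log2 of the antibody over H3, and for H3 log2 of RPM per kb) in the promoter, 5′ window and 3′ window (x axis), with ribosomal protein genes as filled circles, all genes as open circles, h3.3kd in red and WT in blue. Filled circles lie above open ones for H3K4me3 and H3K36me3 in all windows, and below them for H2A.Z and H1 in the 5′ window and 3′ window.

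Because ribosomal protein genes are short, the levels were also read within classes of gene length. Among genes of at least 1000 and under 2000 bp, H3K36me3 over the 3′ window had a median of 0.63 in h3.3kd and 0.52 in WT at 206 ribosomal protein genes, against -0.40 in h3.3kd and -0.24 in WT at 8330 others. H2A.Z in the same class and window was -0.17 in h3.3kd and -0.45 in WT at ribosomal protein genes, against 0.37 in h3.3kd and 0.39 in WT at 8341 others. Both differences had the same direction in 4 of 4 libraries, and likewise in genes of at least 500 and under 1000 bp and in those of 2000 bp or more.

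Read density along the genes was also read without the H3 denominator. H3K4me3 peaked 325 to 375 bp after the start of ribosomal protein genes at 23.8 and 28.0 RPM per kb in h3.3kd and at 22.2 and 28.0 in WT, against 18.4 and 20.7 in h3.3kd and 17.5 and 20.3 in WT at other genes. H3K36me3 reached 27.6 and 26.2 in h3.3kd and 20.8 and 27.4 in WT, against 18.2 and 17.9 in h3.3kd and 14.1 and 17.3 in WT at other genes. H2A.Z fell off along the gene to 7.46 and 8.08 in h3.3kd and 5.79 and 7.55 in WT at 1475 bp, against 9.69 and 10.0 in h3.3kd and 9.17 and 9.75 in WT. H1 at the same distance was 8.78 and 9.78 in h3.3kd and 8.29 and 10.5 in WT, against 10.2 and 10.8 in h3.3kd and 9.51 and 10.4 in WT at other genes, so that it was lower at ribosomal protein genes in 3 libraries and not in WT replicate 2. Within genes, each distance was read only at genes long enough to reach it, so that fewer genes remain with distance. The values at 1475 bp come only from genes of at least 1500 bp.

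**Figure D3:**
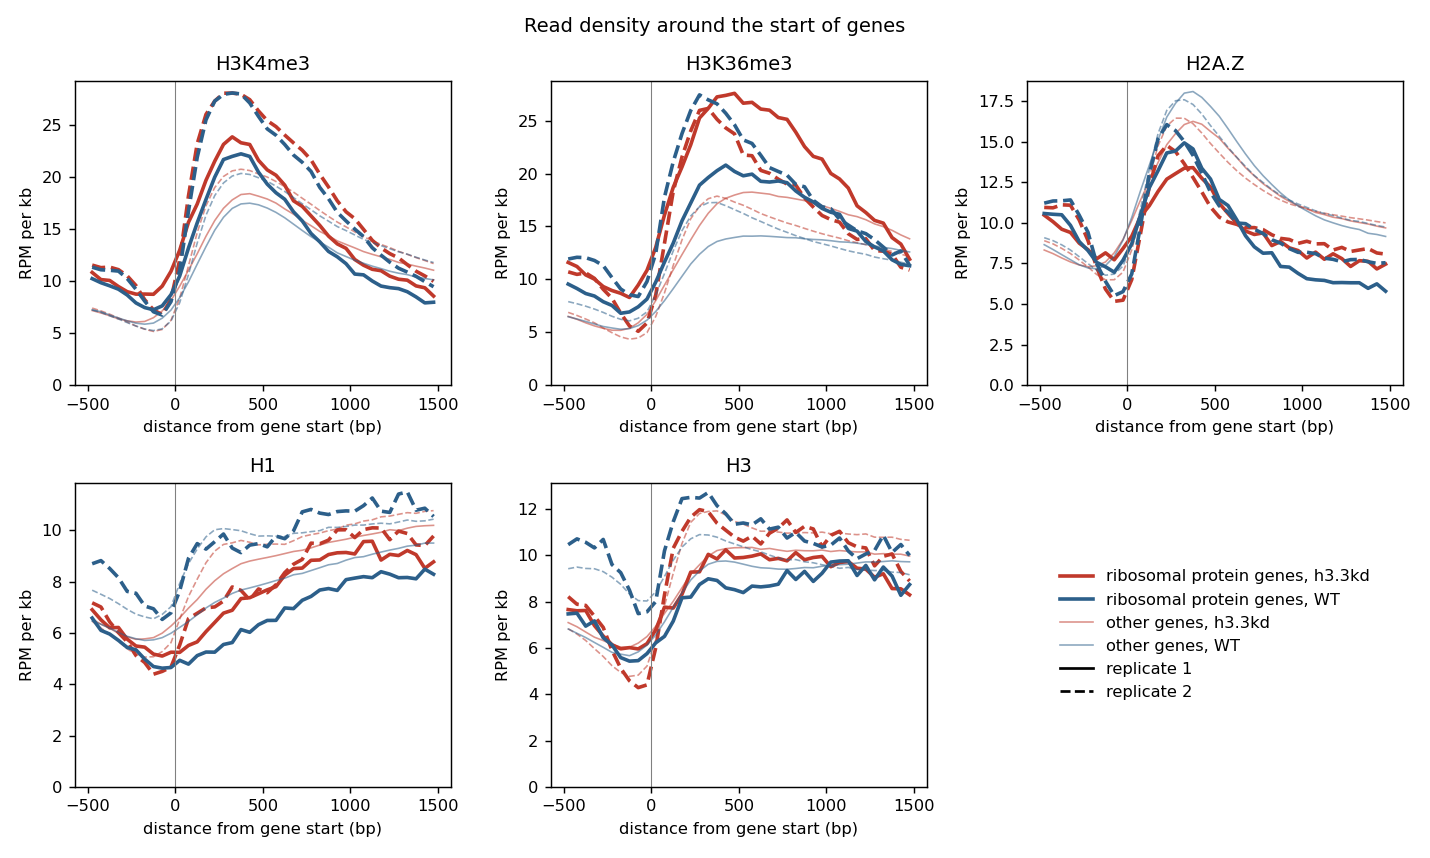
Mean read density (y axis, RPM per kb) by distance from the gene start (x axis, bp) for each antibody. Ribosomal protein genes are thick lines and other genes thin lines, h3.3kd red, WT blue, replicate 1 solid and replicate 2 dashed. Before the start the lines cover 295 ribosomal protein genes and 25911 other genes. Further along, only genes long enough to reach the distance remain, at 1475 bp those of at least 1500 bp. H3K4me3 and H3K36me3 peak higher at ribosomal protein genes in all 4 libraries, and H2A.Z lies below other genes at 1475 bp in all 4.

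Large and small subunit genes had similar levels of H3K36me3 in the 5′ window. It had a median of 1.21 in h3.3kd and 1.10 in WT at 168 large subunit genes, of 1.22 in h3.3kd and 1.10 in WT at 100 small subunit genes, and of 1.12 in h3.3kd and 0.90 in WT at 11 stalk genes. The 40 genes whose products the annotation places in plastids or mitochondria had 1.26 in h3.3kd and 1.12 in WT. At 134 genes with products placed in cytosolic ribosomes it was 1.21 in h3.3kd and 1.07 in WT. This split follows the annotation and not the ribosome itself, since the 40 include LOS1, of the S5/elongation factor G family. H2A.Z over the 3′ window was higher at the stalk genes, with a median of 0.19 in h3.3kd and -0.18 in WT, than at 101 small subunit genes, with -0.22 in h3.3kd and -0.52 in WT, and at 170 large subunit genes, with -0.17 in h3.3kd and -0.37 in WT. By promoter motif, H3K4me3 in the 5′ window was 1.23 in h3.3kd and 1.15 in WT at 52 genes with a telo box, and 1.26 in h3.3kd and 1.16 in WT at 236 without. At 168 genes with a site II element it was 1.31 in h3.3kd and 1.18 in WT, and at 120 without 1.16 in h3.3kd and 1.10 in WT. Over the promoter itself the telo box went with a larger difference. There H3K4me3 was 0.40 in h3.3kd and -0.07 in WT at 52 genes with a telo box, and 0.16 in h3.3kd and -0.31 in WT at 237 without, and H3K36me3 was 0.21 in h3.3kd and 0.12 in WT with it and -0.02 in h3.3kd and -0.17 in WT without. These grouped medians are descriptions and were not tested.

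The promoter window was a different matter, since it often held part of a neighbouring gene. H3K4me3 over promoters had a median of 0.47 in h3.3kd and 0.12 in WT at 164 ribosomal protein genes whose promoter overlapped another gene, and of -0.09 in h3.3kd and -0.52 in WT at 125 whose promoter did not. Promoter values therefore include reads of a neighbour at most of these genes.

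Individual genes spread around these medians. AT5G16130 (S7e family, a 40S protein) had the highest H3K4me3 in WT, with 1.27 and 1.94 in h3.3kd and 1.70 and 1.58 in WT over the 5′ window. AT1G34030 (S13/S18 family) had the highest H3K36me3 in WT, with 1.51 and 0.88 in h3.3kd and 1.24 and 1.92 in WT. AT3G09680 (S12/S23 family) had the highest H2A.Z in the 5′ window in WT, with 0.90 and 1.19 in h3.3kd and 1.50 and 1.47 in WT. These extremes were picked for being high in WT, so that the lower values of the last 2 in h3.3kd are no finding.

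At the other end, AT1G36240 had the lowest H3K4me3 in WT, with -1.23 and -1.43 in h3.3kd and -1.33 and -1.57 in WT over the 5′ window. It also had the lowest H2A.Z in that window, with -0.89 and -0.88 in h3.3kd and -2.28 and -1.09 in WT. AT5G24510, an acidic stalk protein gene, had the lowest H3K36me3 in WT, with -0.76 and -0.65 in h3.3kd and -1.17 and -1.28 in WT. These values rest on a mean of 14 reads of H3K36me3 and 22.25 of H3 a library. For H1 over the 3′ window the extremes in WT were AT2G16360 (40S S25), with 0.23 and 0.34 in h3.3kd and 0.45 and 0.95 in WT, and SAC52 (RPL10A, found as a suppressor of a stem elongation mutant), with -0.36 and -0.22 in h3.3kd and -0.67 and -0.62 in WT. H3 over the 3′ window was highest in WT at AT1G77940 (L7Ae/L30e/S12e/Gadd45 family), with 4.14 and 4.08 in h3.3kd and 3.88 and 4.33 in WT. It was lowest at RPL12-C, a gene for ribosomal protein L12, with 1.39 and 1.48 in h3.3kd and 1.77 and 2.39 in WT, from a mean of 20.25 reads a library. These genes too were picked for extreme values in WT, so that their differences between h3.3kd and WT in these windows are no finding.

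A group of 12 of 288 ribosomal protein genes had less H3K4me3 and less H3K36me3 than H3 in the 5′ window (mean log2 ratio under 0 in WT for both). They were AT1G36240, AT2G16360, AT2G27535, AT2G39590, AT2G47570, AT3G18240, RPL12-B, AT3G48960, AT4G16030, AT5G09500, AT5G24510 and AT5G43640, and they were grouped after their values were seen, so the values that define them are no finding and nothing about them was tested. Their median H3K36me3 in the 5′ window was -0.94 in h3.3kd and -0.78 in WT, against 1.22 in h3.3kd and 1.10 in WT at the other 276. By product they were scattered over both subunits: RPL12-B is a gene for an organelle L12 protein, AT5G43640 and AT5G09500 are S19 family genes, and AT2G27535, with an L10A family product, lies just upstream of RPL10aB (PGY1).

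H2A.Z, which was not used to group them, ran over the 3′ window of these genes. It was above 0 in all 4 libraries at 10 of the 12, against 36 of the other 276, and below 0 in all 4 at 2 of the 12 (AT1G36240 and AT3G18240), against 142 of 276. The median over the 3′ window was 0.48 in h3.3kd and 0.81 in WT, against -0.18 in h3.3kd and -0.44 in WT at the others. AT2G47570 had 0.71 and 0.46 in h3.3kd and 1.13 and 0.69 in WT, RPL12-B 0.73 and 0.30 in h3.3kd and 1.08 and 1.16 in WT, and AT4G16030 (L19e family) 0.62 and 0.28 in h3.3kd and 1.09 and 0.94 in WT. AT1G36240 was the clearest exception, with -1.23 and -1.59 in h3.3kd and -1.54 and -0.84 in WT. The group was shorter, with a median of 1007 bp against 1602 bp, and 6 of 12 had a telo box against 46 of 276. H2A.Z over the 3′ window also differed with length among ribosomal protein genes. Its median was 0.42 in h3.3kd and 0.33 in WT at 30 of at least 500 and under 1000 bp. At 206 of at least 1000 and under 2000 bp it was -0.17 in h3.3kd and -0.45 in WT. Genes other than ribosomal protein genes had medians above 0 at both lengths. These were 0.51 in h3.3kd and 0.57 in WT at the shorter, and 0.37 in h3.3kd and 0.39 in WT at the longer. The part of length in the H2A.Z of the group was not tested.

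**Figure D4:**
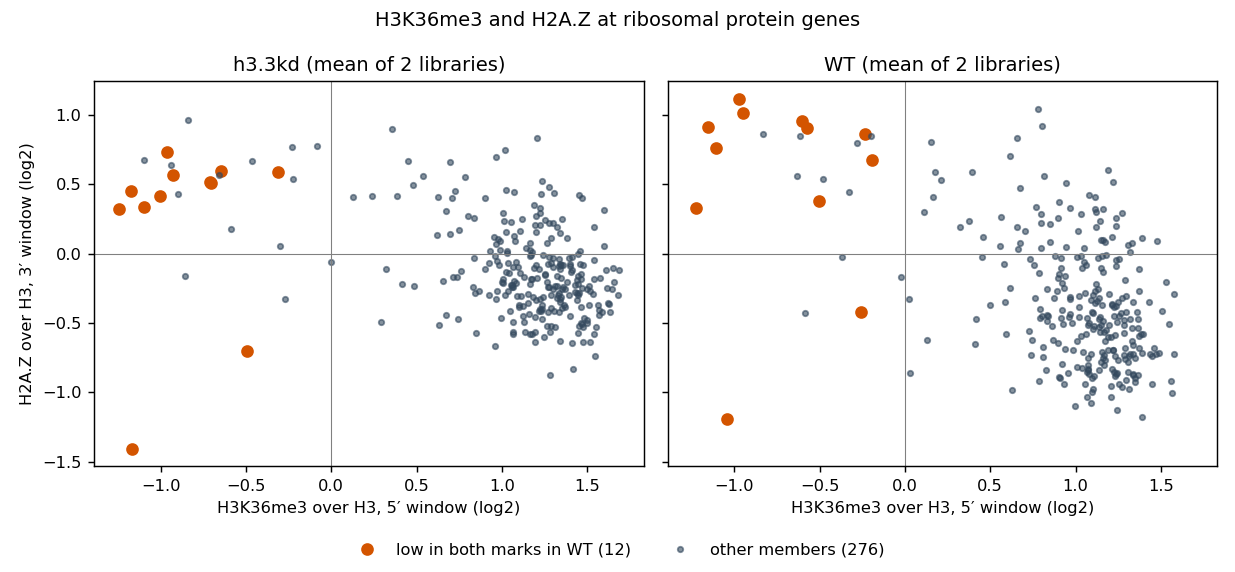
H2A.Z over H3 in the 3′ window (y axis, log2) against H3K36me3 over H3 in the 5′ window (x axis, log2) for 288 ribosomal protein genes, mean of 2 libraries, h3.3kd on the left and WT on the right, with the 12 genes low in both H3K4me3 and H3K36me3 in WT in orange. The orange points lie on the left by construction, and 10 of the 12 lie above 0 on the y axis in both genotypes.

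Across the 288 genes in WT, H3K4me3 and H3K36me3 in the 5′ window had a Spearman correlation of 0.90, and H3K36me3 in the 5′ window and H2A.Z over the 3′ window one of -0.43. These points share their H3 libraries, and the first pair also its denominator, so the values are descriptions only. The mean levels in h3.3kd and WT had correlations between 0.45 and 0.79 over the 15 pairs of antibody and window. Between the WT replicates the correlations ran from -0.06 (H3, 3′ window) to 0.73 (H2A.Z, promoter). Between the h3.3kd replicates they ran from 0.35 (H3K4me3, 5′ window) to 0.79 (H3, promoter). The order of the genes was thus not stable for every antibody and window.

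The comparison of h3.3kd with WT asked whether chromatin of these genes differs when H3.3 is reduced. No ribosomal protein gene was called in any of the 15 pairs of antibody and window by limma at an adjusted p under 0.05, and limma-voom on the reads also called 0. The next paragraphs give, for each antibody, how many genes had an unadjusted p under 0.05 and at how many both h3.3kd libraries lay above, or below, both WT libraries, each beside the share over all genes tested.

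For H3K4me3, 0 of 289 promoters, 0 of 288 5′ windows and 0 of 291 3′ windows were called, against 0.0694%, 0.0% and 0.0077% of all genes. At an unadjusted p under 0.05 there were 23 ribosomal protein genes over promoters (7.96%, against 5.58% of all genes), 21 over 5′ windows (7.29%, against 4.51%) and 22 over 3′ windows (7.56%, against 4.73%). Of these, 23, 20 and 20 were higher in h3.3kd. Over all genes, 1436 were higher and 13 lower over promoters, 884 higher and 281 lower over 5′ windows, and 582 higher and 647 lower over 3′ windows. Both h3.3kd libraries lay above both WT libraries at 117 promoters (40.5%, against 25.8%), 59 5′ windows (20.5%, against 16.1%) and 82 3′ windows (28.2%, against 14.0%). They lay below at 8 (2.77%, against 3.63%), 25 (8.68%, against 14.5%) and 22 (7.56%, against 15.7%). The median difference over promoters was 0.37, against 0.31 over all genes. In replicate 1 alone it was 0.11, and in replicate 2, which includes the WT H3 library that stood apart, 0.69. Calls among ribosomal protein genes depended on which WT library was left out. Those fits hold a lone WT sample, so their counts are not given.

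Here and below, the largest difference each way is that among genes whose genotypes do not overlap and whose window held a mean of at least 50 reads both in the libraries of the antibody and in those of H3. AT4G21460 (S24/S35) had 0.59 and 0.52 in h3.3kd and -0.21 and -0.81 in WT over its promoter, a log2 difference of 1.06 (SE 0.44, limma adjusted p = 0.664). AT3G48960 (L13e family) had -0.37 and -0.68 in h3.3kd and 0.43 and -0.14 in WT, a difference of -0.67 (SE 0.52). In the 5′ window AT1G52370 (L22p/L17e family) had the largest difference upward within these limits, with 1.08 and 1.71 in h3.3kd and 0.73 and 0.79 in WT. AT1G34030 had the largest downward, with 1.04 and 1.21 in h3.3kd and 1.42 and 1.83 in WT. In the 3′ window these places went to AT3G28900 (L34e, a 60S protein), with 0.44 and -0.27 in h3.3kd and -0.61 and -1.27 in WT, and to AT1G36240, with -2.05 and -2.10 in h3.3kd and -0.78 and -1.02 in WT. None of these passed the adjusted threshold.

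For H3K36me3 the promoters, 5′ windows and 3′ windows called over all genes were 0.0193%, 0.0195% and 0.131%, with 0 among ribosomal protein genes. Unadjusted, 8 promoters (2.77%, against 2.75% of all genes), 3 5′ windows (1.04%, against 3.43%) and 15 3′ windows (5.15%, against 6.76%) had p under 0.05. Both h3.3kd libraries lay above both WT libraries at 72 promoters (24.9%, against 14.1%), 55 5′ windows (19.1%, against 14.5%) and 50 3′ windows (17.2%, against 7.55%), and below at 22 (7.61%, against 12.4%), 28 (9.72%, against 14.2%) and 26 (8.93%, against 28.6%). The median difference over 3′ windows was 0.07, against -0.17 over all genes. In replicate 1 it was 0.16 and in replicate 2 it was -0.03. The interquartile range of this level over all genes was 1.39 and 0.70 in h3.3kd and 0.98 and 0.67 in WT, so that replicate 1 of h3.3kd set high and low genes further apart, and the part of this in the result was not tested.

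Over the 3′ window, AT1G08360 (L1p/L10e family, a cytosolic 60S protein) had 1.07 and 0.52 in h3.3kd and 0.28 and -0.15 in WT, a log2 difference of 0.72 (SE 0.24, limma adjusted p = 0.347). AT2G16930 (L27 family) had 0.19 and -0.38 in h3.3kd and 0.65 and 0.66 in WT, a difference of -0.75 (SE 0.23, limma adjusted p = 0.243), the smallest adjusted p among ribosomal protein genes in this window. Over promoters the largest differences within the same limits were those of AT5G18790 (L33 family), with 1.69 and 1.41 in h3.3kd and 0.84 and 0.80 in WT, and, downward, of EMB3137 (S13/S18 family of an organelle ribosome, needed in the embryo), with -0.86 and -0.40 in h3.3kd and 0.28 and -0.40 in WT, the last 2 values differing only beyond the printed digits. In the 5′ window they were AT1G52370 again, with 1.22 and 1.13 in h3.3kd and 0.58 and 0.33 in WT, and AT5G61170 (S19e family), with 1.20 and 1.14 in h3.3kd and 1.87 and 1.26 in WT.

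For H2A.Z over the 3′ window no ribosomal protein gene was called (0 of 291, against 0.0% of all genes). At an unadjusted p under 0.05 there were 31 (10.7%, against 8.32% of all genes), 28 of them higher in h3.3kd. Over all genes, 1040 were higher and 1121 lower. Both h3.3kd libraries lay above both WT libraries at 126 of 291 genes (43.3%, against 24.6%) and below at 16 (5.50%, against 18.6%). The median difference was 0.21, against 0.07 over all genes, and it was 0.24 in replicate 1 and 0.16 in replicate 2. The interquartile range of the level over all genes was narrower in h3.3kd, at 0.90 and 0.81, than in WT, at 1.40 and 1.04, and the median of ribosomal protein genes lay below that of all genes in each library. The part of the narrower range in the difference was not tested. Calls among ribosomal protein genes depended on which library was left out. Those fits hold a lone sample in 1 genotype, so their counts are not given.

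The stalk gene AT5G57290 showed the largest difference in H2A.Z over the 3′ window, with -0.20 and 0.04 in h3.3kd and -1.24 and -0.95 in WT, a log2 difference of 1.02 (SE 0.29, limma adjusted p = 0.542). Its H3 in the same window had the largest difference downward, with 2.67 and 2.82 in h3.3kd and 3.01 and 3.56 in WT, and H2A.Z alone was 5.36 and 7.10 RPM per kb in h3.3kd and 3.24 and 5.94 in WT. AT3G48960 had the largest difference downward, with 0.49 and 0.16 in h3.3kd and 0.54 and 1.38 in WT, a log2 difference of -0.64 (SE 0.29). That gene belongs to the 12 low in H3K4me3 and H3K36me3, at which the median difference was -0.31, against 0.22 at the other 276. The 12 were grouped by WT values, and their median H2A.Z in WT was 0.81, against -0.44 at the others. The range of H2A.Z over all genes was narrower in h3.3kd, as given above. The part of this in the contrast was not tested.

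At promoters and in 5′ windows H2A.Z followed all genes more closely. None of 289 promoters and none of 288 5′ windows was called, against 0.0% and 0.0% of all genes. Unadjusted, 15 promoters (5.19%, against 5.06% of all genes) and 8 5′ windows (2.78%, against 3.54%) had p under 0.05. Both h3.3kd libraries lay above both WT libraries at 97 promoters (33.6%, against 30.4%) and 24 5′ windows (8.33%, against 6.64%), and below at 15 (5.19%, against 4.95%) and 56 (19.4%, against 26.2%). The median difference over promoters was 0.30, against 0.32 over all genes. It was -0.01 in replicate 1 and 0.65 in replicate 2. The calls in promoters and 5′ windows depended on which WT library was left out. With at least 50 reads of both H2A.Z and H3, AT4G18100 (L32e) had the largest difference upward over promoters, and AT5G08180 upward and AT5G11750 downward over 5′ windows. AT4G18100 had 0.24 and -0.58 in h3.3kd and -1.01 and -1.24 in WT. AT5G11750 (L19 family) had 0.52 and 0.39 in h3.3kd and 1.49 and 1.06 in WT. AT5G08180 (L7Ae/L30e/S12e/Gadd45 family) had 0.13 and 0.16 in h3.3kd and 0.05 and -0.71 in WT.

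For H1, 0 promoters, 0 5′ windows and 0 3′ windows were called, against 0.0%, 0.0% and 0.0% of all genes. Unadjusted, 9 promoters (3.11%, against 2.23% of all genes), 12 5′ windows (4.17%, against 2.73%) and 6 3′ windows (2.06%, against 2.80%) had p under 0.05, and 11 of the 12 5′ windows were lower in h3.3kd. Over all genes, 438 5′ windows were lower and 267 higher. Both h3.3kd libraries lay above both WT libraries at 70 promoters (24.2%, against 19.4%), 27 5′ windows (9.38%, against 10.0%) and 40 3′ windows (13.7%, against 12.6%), and below at 23 (7.96%, against 8.19%), 61 (21.2%, against 18.9%) and 42 (14.4%, against 15.8%). The shares followed those of all genes. The median difference was 0.10 over promoters, -0.10 over 5′ windows and -0.00 over 3′ windows, against 0.13, -0.07 and -0.02 over all genes.

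With at least 50 reads of both H1 and H3, the largest H1 difference upward over promoters was that of AT5G09500 (S19 family), with 0.45 and 0.51 in h3.3kd and -0.23 and -0.48 in WT. AT2G17360 (RPS4A, a 40S protein) had -0.86 and -1.06 in h3.3kd and -0.67 and 0.16 in WT. In the 5′ window AT5G56940 (S16 family) had -0.44 and 0.02 in h3.3kd and -0.70 and -0.65 in WT. Over the 3′ window AT2G09990, a 40S protein gene, had -0.42 and -0.97 in h3.3kd and -0.00 and 0.02 in WT.

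H3 gave 0 calls among ribosomal protein genes in promoters, 5′ windows and 3′ windows, against 0.0%, 0.0% and 0.0% of all genes. Unadjusted, 4 promoters (1.38%, against 1.55% of all genes), 1 5′ window (0.347%, against 2.11%) and 4 3′ windows (1.37%, against 2.91%) had p under 0.05. Both h3.3kd libraries lay above both WT libraries at 15 promoters (5.19%, against 4.06%), 31 5′ windows (10.8%, against 18.5%) and 42 3′ windows (14.4%, against 21.7%), and below at 91 (31.5%, against 28.0%), 23 (7.99%, against 7.26%) and 44 (15.1%, against 10.3%). The median difference over promoters was -0.29, against -0.32 over all genes, and it was 0.04 in replicate 1 and -0.66 in replicate 2. Here too the calls depended on which WT library was left out, and WT replicate 2 is the library that stood apart.

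**Figure D5:**
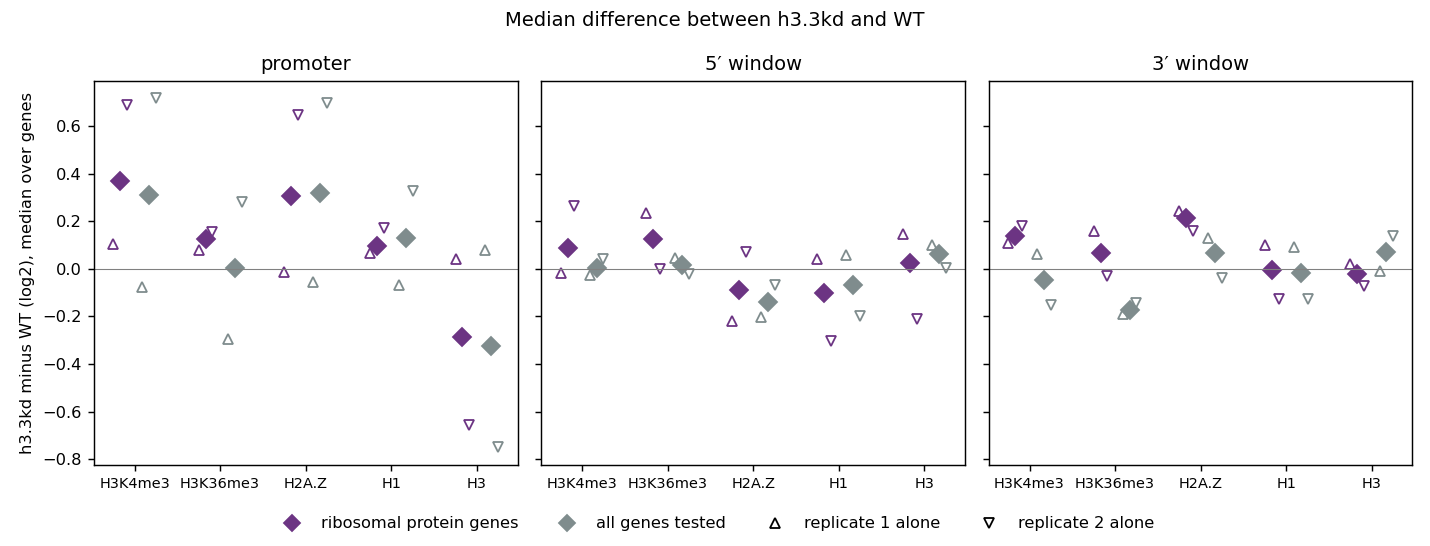
Median difference between h3.3kd and WT (y axis, log2, h3.3kd minus WT) for each antibody (x axis) in the promoter, 5′ window and 3′ window, with ribosomal protein genes in purple, all genes tested in grey, diamonds for the fit of 2 against 2 libraries and open triangles for replicate 1 (up) and replicate 2 (down) alone. Over promoters the triangles of H3K4me3, H2A.Z and H3 lie far apart, and over 3′ windows those of H2A.Z at ribosomal protein genes lie at 0.24 and 0.16.

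AT4G36130 (L2 family) had the largest difference downward in promoter H3 at a mean of at least 50 reads, with 2.49 and 2.88 in h3.3kd and 3.23 and 3.40 in WT. In the 5′ window AT5G25230, a gene of the S5/elongation factor G family, had 3.71 and 3.75 in h3.3kd and 3.32 and 2.95 in WT, and AT3G16780 (L19e family) had 2.86 and 3.10 in h3.3kd and 3.18 and 3.74 in WT. Over the 3′ window H3 had the largest difference upward at AT1G36240, with 3.44 and 3.52 in h3.3kd and 3.18 and 2.49 in WT, the same gene that had the largest difference downward in H3K4me3 over H3. Its H3K4me3 alone was 2.48 and 2.53 RPM per kb in h3.3kd and 5.15 and 2.62 in WT.

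The replicates ordered the genes differently. Over ribosomal protein genes, the difference between h3.3kd and WT in the replicate 1 libraries and that in the replicate 2 libraries had Spearman correlations between -0.20 and 0.20 over the 15 pairs of antibody and window. These values describe 2 replicates and have no test.

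A list of 19 ribosomal protein genes known from mutants with altered leaf, flower or embryo development was followed by name, of which 18 or 19 were tested. None was called with any antibody in any window. H2A.Z over their 3′ windows had a median of -0.42 in h3.3kd and -0.83 in WT, against -0.15 in h3.3kd and -0.39 in WT at the other 272 genes, and both h3.3kd libraries lay above both WT libraries at 13 of the 19, against 113 of the other 272 and 24.6% of all genes. This pair was picked for print as the highest count. Over the other 14 pairs of antibody and window the h3.3kd libraries lay above at 0 to 10 listed genes and below at 0 to 8. The 10 were for H3K4me3 promoters, against 25.8% of all genes, and the 8 for H3 promoters, against 28.0%. The largest H2A.Z differences of the list over the 3′ window were those of RPS6A, described next, SAC52, with -0.46 and 0.10 in h3.3kd and -0.85 and -0.88 in WT, and RPS18A (PFL1, named for pointed first leaves), with -0.18 and 0.03 in h3.3kd and -0.94 and -0.53 in WT. RPL24B (STV1), needed for reinitiation of translation and for the gynoecium, had -0.15 and -0.36 in h3.3kd and -1.29 and -0.47 in WT. Among the PIGGYBACK genes, which act with AS1 in leaf polarity, PGY1 (RPL10aB) had -0.36 and -0.54 in h3.3kd and -0.98 and -0.90 in WT. RPL27aC differed little, with -0.19 and -0.14 in h3.3kd and 0.03 and -0.20 in WT.

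At RPS6A (AT4G31700) the h3.3kd and WT libraries did not overlap over the 3′ window with any antibody, though no difference passed the adjusted threshold. H2A.Z over H3 was 0.00 and -0.15 in h3.3kd and -1.11 and -0.77 in WT, a log2 difference of 0.86 (SE 0.28, limma adjusted p = 0.542). H3K4me3 over H3 was 0.32 and 0.18 in h3.3kd and -0.49 and -0.56 in WT, H3K36me3 0.62 and 0.45 in h3.3kd and -0.31 and -0.02 in WT, and H1 0.13 and 0.25 in h3.3kd and -0.60 and -0.15 in WT. These ratios share 1 denominator, and H3 was lower in h3.3kd, at 3.05 and 3.33, than in WT, at 3.56 and 3.82. Without H3, H2A.Z was 8.19 and 8.98 RPM per kb in h3.3kd and 5.36 and 8.16 in WT, and H3K36me3 was 12.6 and 13.6 in h3.3kd and 9.40 and 13.8 in WT. The groups overlapped for H3K36me3 alone and for H1 alone, at 8.95 and 11.9 in h3.3kd and 7.69 and 12.6 in WT. Its paralog RPS6B had -0.64 and -0.41 in h3.3kd and -1.22 and -0.45 in WT for H2A.Z over H3, with a log2 difference of 0.30 (SE 0.33).

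Over promoters, RPL8A (EMB2296, needed in the embryo) had H3K4me3 of 1.12 and 0.37 in h3.3kd and -0.09 and -0.93 in WT, a log2 difference of 1.25 (SE 0.41, limma adjusted p = 0.399), from a mean of 83 reads a library and of 26.25 reads of H3, too few of H3 for the limits above. H3 there was lower in h3.3kd, at 1.47 and 1.68, than in WT, at 1.97 and 3.00. The part of H3 in the difference was not tested. RPS5B had H2A.Z of 1.29 and 0.90 in h3.3kd and 0.17 and -0.10 in WT, a log2 difference of 1.06 (SE 0.40, limma adjusted p = 0.875). H3 at this promoter was also lower in h3.3kd, at 1.72 and 2.36, than in WT, at 2.60 and 3.16. It had a mean of 36 reads, again too few for the limits above. The part of H3 in this difference was not tested either. The paralog RPS5A, whose promoter differs as printed above, had H2A.Z over the 3′ window of -0.28 and 0.04 in h3.3kd and -0.82 and -0.58 in WT, and RPS5B had -0.68 and -0.26 in h3.3kd and -0.94 and -0.36 in WT. The h3.3kd and WT values of RPS5A did not overlap there and those of RPS5B did.

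The genes that build ribosomes and adjust them to growth were read from a second list, of 28 genes that are no ribosomal protein genes. All 28 were tested and 0 were called with any antibody in any window by limma. At an unadjusted p under 0.05 there were 2 higher in h3.3kd for H3K4me3 over promoters, 2 lower for H3K36me3 over 3′ windows and 2 higher for H2A.Z over 3′ windows, against 5.58%, 6.76% and 8.32% of all genes in either direction, and 0 in the other 12 pairs. A count of 2 of 28 is near these shares. S6K1, the kinase that phosphorylates RPS6, had promoter H3K4me3 of 0.92 and 0.48 in h3.3kd and 0.01 and -0.95 in WT, a log2 difference of 1.16 (SE 0.41, limma adjusted p = 0.497). MTR4, an RNA helicase of ribosomal RNA processing, had H3K36me3 over the 3′ window of -0.24 and -0.45 in h3.3kd and 0.31 and 0.28 in WT, a log2 difference of -0.64 (SE 0.24, limma adjusted p = 0.504). Like the ribosomal protein genes, the list had low H2A.Z over the 3′ window, with a median of -0.24 in h3.3kd and -0.58 in WT.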

How the data were processed

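The deposited files are lists of read positions, 1 for each of 20 ChIP-seq libraries. The authors mapped reads of 50 bases with Bowtie to TAIR10, kept uniquely mapping reads without duplicates and normalized to their number. The deposited positions of 16 lists carry the strand. The other 4 do not, and they hold no organelle reads. Coordinates are those of TAIR10.1, whose 5 nuclear chromosomes are the same.

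Here each read was counted at its middle base in 3 windows of each gene. Values were log2 of (antibody + 0.1) over (H3 + 0.1) in RPM (reads per 1000000 listed), with H3 of the same genotype and replicate number, and for H3 log2 of (RPM + 0.1) per kb, so that differences of sparsely covered windows are understated. Genes under 500 bp and windows under a mean of 10 reads in the antibody or H3 libraries were left out. Each antibody and window was fitted across all genes with limma 3.58.1 (lmFit, eBayes with trend) in R 4.3.3, 2 h3.3kd against 2 WT libraries, with Benjamini-Hochberg adjustment over all genes tested and a threshold of 0.05. The scripts were tested on simulated data.

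The ribosomal protein genes and both gene lists were chosen with earlier results of these data known. Named were the 19 listed ribosomal protein genes, members past the adjusted threshold, the largest difference each way with a mean of at least 50 reads in the antibody and in the H3 libraries and no overlap between genotypes, and the highest and lowest WT levels. Some genes that this rule takes are not reported here. The grouping of 12 low genes and of products by place was chosen after values were seen. Alternatives covered the H3 denominator, the pseudocount, the filter, gene length, library size, depth, uniquely mappable windows, window borders, limma-voom, a replicate block and leaving out each replicate. The smallest library held 8688846 reads, which limits values of windows with few reads. Sequences and gene models were read from RefSeq TAIR10.1.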

Additional observations from a re-analysis of the deposited data

How the results depend on the processing

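Pseudocount, filter, gene length, library size, thinning to the smallest library, uniquely mappable windows, window borders and limma-voom left 0 ribosomal protein genes called for all 15 pairs of antibody and window. The replicate block also gave 0 calls in all 15. Same-numbered samples deviated together with correlations of -0.25 to 0.20 over 2 pairs. With 2 samples a genotype this cannot decide whether the numbers pair the samples, and replicate 2 of H3K4me3 and H2A.Z carries no strand in both genotypes. A crossed replicate block for H3 over promoters and 3′ windows, added after seeing the data, gave 0.

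The H3 denominator mattered. Without any, 0 ribosomal protein genes were called in all 12 pairs. With the H3 libraries of a genotype pooled, the calls were 40 for H3K4me3 promoters, 2 for 5′ windows and 1 for 3′ windows, 9 for H2A.Z promoters and 2 for H3K36me3 3′ windows. With H3 replicate 1 alone they were 10, 1 and 4 for H3K4me3, 15, 2 and 9 for H3K36me3 (promoters, 5′ windows, 3′ windows), 43 and 3 for H2A.Z 5′ windows and 3′ windows, and 11 and 12 for H1 promoters and 5′ windows. Both reuse 1 denominator for both replicates, which hides its spread.

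Leaving out 1 library gave 0 to 91 calls for H3K4me3 promoters, 0 to 18 for 5′ windows and 0 to 9 for 3′ windows, 0 to 54, 0 to 13 and 0 to 63 for H2A.Z in the same order, 0 to 1 for H3K36me3 3′ windows, and 0 to 19, 0 to 33 and 0 to 45 for H3. The lone sample is then assumed to vary like the other genotype.

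Median differences also moved. Without the H3 denominator they were -0.21 for H3K36me3 promoters, -0.013 for H2A.Z promoters, -0.22 for H1 promoters and 0.19 for H2A.Z 3′ windows (0.19 with H3 pooled). With H3 replicate 1 alone they were 0.029 for H3K4me3, -0.25 for H3K36me3, -0.052 for H2A.Z and -0.25 for H1 promoters, -0.061 for H3K4me3, -0.055 for H3K36me3 and -0.23 for H1 5′ windows, and 0.16 for H2A.Z 3′ windows. With the last 25% of the gene as the 3′ window they were 0.24 for H3K4me3 and 0.33 for H2A.Z. Without 1 library they ran, over promoters, from 0.11 to 0.70 for H3K4me3 and from 0.035 to 0.54 for H2A.Z. Over 5′ windows the ranges were -0.003 to 0.21 for H3K4me3, -0.059 to 0.29 for H3K36me3, -0.24 to 0.050 for H1 and -0.31 to 0.25 for H3. Over 3′ windows they were 0.19 to 0.22 for H2A.Z, -0.11 to 0.10 for H1 and -0.16 to 0.087 for H3. The cause of these shifts was not tested.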
